A study of Mus musculus with 17 samples.

Results

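Marker genes of cortical GABAergic interneurons were followed in bulk RNA sequencing of mouse prefrontal cortex. The 10 genes were chosen by symbol as known class markers, at a time when earlier results of these data were known. They were Pvalb, Sst and Vip, which define the main interneuron classes, Gad1, Gad2 and Slc32a1, which make and package GABA, the transcription factor gene Lhx6, and Reln, Calb2 and Cox6a2, which mark further classes or subsets. Each symbol matched 1 row of the count table, so that 10 of its 56953 genes are described, and all 10 had enough counts to be among the 23062 genes tested.

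The cortices came from B6C3F1/J mice of 3 genotypes at 8 months of age. WT mice (n = 5) carried no transgene. PS19 mice (n = 6, labelled hTau) carried a mutant human Tau transgene under the Prnp promoter, which is active in neurons of every brain region and in other cells. CgA-KO/PS19 mice (n = 6, labelled CgA-KO/hTau) carried the same transgene and lacked chromogranin A (CgA), a protein of secretory granules, in the whole body from birth. CgA-KO mice without the transgene were not analysed here, so the comparison of CgA-KO/PS19 with PS19 asks what CgA loss does in Tau transgenic cortex only. The labels name each library as a replicate and give neither sex nor dissection batch. The Y-linked gene Ddx3y stood at 49.8 to 76.8 CPM (counts per TMM-adjusted library size) in replicates 1 to 3 of every genotype and at 0 to 0.0582 CPM in the other libraries, so replicates 1 to 3 had male RNA and the others did not.

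Cortical interneurons are inhibitory neurons that arise in the ganglionic eminences and release GABA within the cortex. Parvalbumin cells fire fast and inhibit the cell bodies of pyramidal neurons, somatostatin cells inhibit their dendrites, and VIP cells mostly inhibit other interneurons. The classes are told apart by a few genes each, whereas GABA synthesis genes are shared by all of them and also by the projection neurons of the striatum. In RNA from whole tissue, fewer cells of a class and less RNA per cell cannot be told apart.

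The sequences upstream of the 3 class-defining genes are shown because the comparison of the classes turns on these genes. They are from RefSeq on GRCm38.p6, 5′ to 3′ on the strand of the gene, and 8 of the 10 genes were found in that table, all but Calb2 and Cox6a2. Pvalb, on the minus strand, is shown over chr15:78206401-78206500, the 100 bases before its start. Sst, also on the minus strand, is shown over chr16:23890875-23890904, which is 60 to 31 bases before its RefSeq start and within the Sst gene of GENCODE M21. Vip, on the plus strand, is shown over chr10:5639118-5639217, the 100 bases before its start. Capitals mark the full cAMP-response element TGACGTCA in Sst, and its shorter core TGACG and the TATA box letters TATAAA in Vip.
Pvalb: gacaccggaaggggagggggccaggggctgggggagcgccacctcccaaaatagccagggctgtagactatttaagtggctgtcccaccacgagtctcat
Sst: cgcctccttggcTGACGTCAgagagagagt
Vip: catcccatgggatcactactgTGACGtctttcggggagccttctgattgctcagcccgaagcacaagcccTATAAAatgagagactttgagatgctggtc

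Both strands of windows from 250 bases before to 50 bases after each start were searched. Sst held TGACGTCA at position -48 from its start, as did 1.79% of the 32851 windows of all genes. TGACG, which lies within TGACGTCA and was added after the sequences had been seen, also occurred in Vip at position -79 and in Gad2 on the other strand, against 20.8% of all windows. TATAAA occurred in Vip at positions -157, -147 and -30 and, on the other strand, in Gad1 and Lhx6, against 13.6% of all windows. TAATTA, the core letters that homeodomain factors such as the DLX proteins bind, was in 5.29% of all windows and in none of these genes. A match is a description of the letters, and binding was not measured.

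WT libraries held 8838334 to 184389431 counts, with replicate 4 the shallowest of all. PS19 libraries held 53271515 to 227651681 counts, and CgA-KO/PS19 libraries 37657767 to 184877001. Low counts peaked at 6 in 17 of 17 libraries and at 3 in 13, so that about 3 counts stood for 1 fragment. Chga, the gene of CgA, was at 0 in all 6 CgA-KO/PS19 libraries and at 163 ± 11.9 CPM (SD, n = 5) in WT. Prnp, whose promoter drives the transgene, was at 748 to 914 CPM in WT and 1974 to 2368 CPM in PS19. In CgA-KO/PS19 it was 1236 to 1348 CPM in replicates 1 to 3 and 1676 to 2079 CPM in replicates 4 to 6. The cause of this difference was not tested. Within a genotype, PS19 replicates 4, 5 and 6 were the most alike. Over 3761 genes that reached 500 counts in each library, the scaled median absolute deviation of their log2 ratios was 0.0523 to 0.0607. It was 0.0980 for replicates 1 and 3 of CgA-KO/PS19, and no other pair was under 0.146. Each was kept as a separate library. The cortical markers Slc17a7, Neurod6 and Tbr1 were present in every library.

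Marker RNA of striatal neurons, whose tissue lies beneath the cortex, was unevenly spread over the libraries. The reason for this was not tested. The summed level of 18 striatal medium spiny neuron markers was 1830, 1926, 4975, 1720 and 4637 CPM in WT replicates 1 to 5 and 575 to 690 CPM in PS19. It was 3191, 835 and 3186 CPM in CgA-KO/PS19 replicates 1 to 3, above every PS19 library, and 544 to 586 CPM in replicates 4 to 6. Drd2, the D2 dopamine receptor gene, was at 33.4 to 132 CPM in WT, 0.601 to 1.31 CPM in PS19, and 83.0, 10.9 and 76.9 CPM in CgA-KO/PS19 replicates 1 to 3. Isl1 and Lhx8, transcription factor genes of striatal and basal forebrain neurons, were at 0 in every PS19 library and in CgA-KO/PS19 replicates 4 to 6, and Isl1 was above 0 in every WT library. All 5 WT libraries thus held striatal RNA and no PS19 library stood at their level, so for PS19 against WT the genotype and the striatal level cannot be told apart by leaving libraries out. A fit with the striatal level as a covariate cannot tell them apart either, because the WT and PS19 ranges do not overlap. Its values for that comparison rest on how genes ran with the striatal level within the genotypes. CgA-KO/PS19 replicates 1 to 3 were also the libraries with Ddx3y, so within this genotype sex and striatal level cannot be told apart, and a fit without them keeps only libraries without Ddx3y in it. PS19 replicates 1 to 3, which had Ddx3y too, were low in striatal markers. CgA-KO/PS19 replicates 1 to 3 also had 13.8% to 18.2% of their counts in mitochondrial genes, against 3.84% to 10.9% in replicates 4 to 6 and 2.56% to 4.59% in PS19.

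In PS19 cortex the levels per kilobase of exon, which allow genes to be compared, placed Sst first, with a median of 229 CPM per kilobase. Gad1 followed at 69.8 and Pvalb at 69.2 CPM per kilobase, and the ranges of this pair over the 6 libraries overlapped. Gad2 was at 46.9, Slc32a1 at 34.0 and Vip at 17.3 CPM per kilobase, each with a range apart from its neighbours. Cox6a2 at 6.04, Lhx6 at 5.12, Calb2 at 4.47 and Reln at 3.44 CPM per kilobase were the lowest, and each overlapped the next in this order. The length was the union of all annotated exons, which is long for Reln (23738 bases) and lowers its value.

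**Figure D1:**
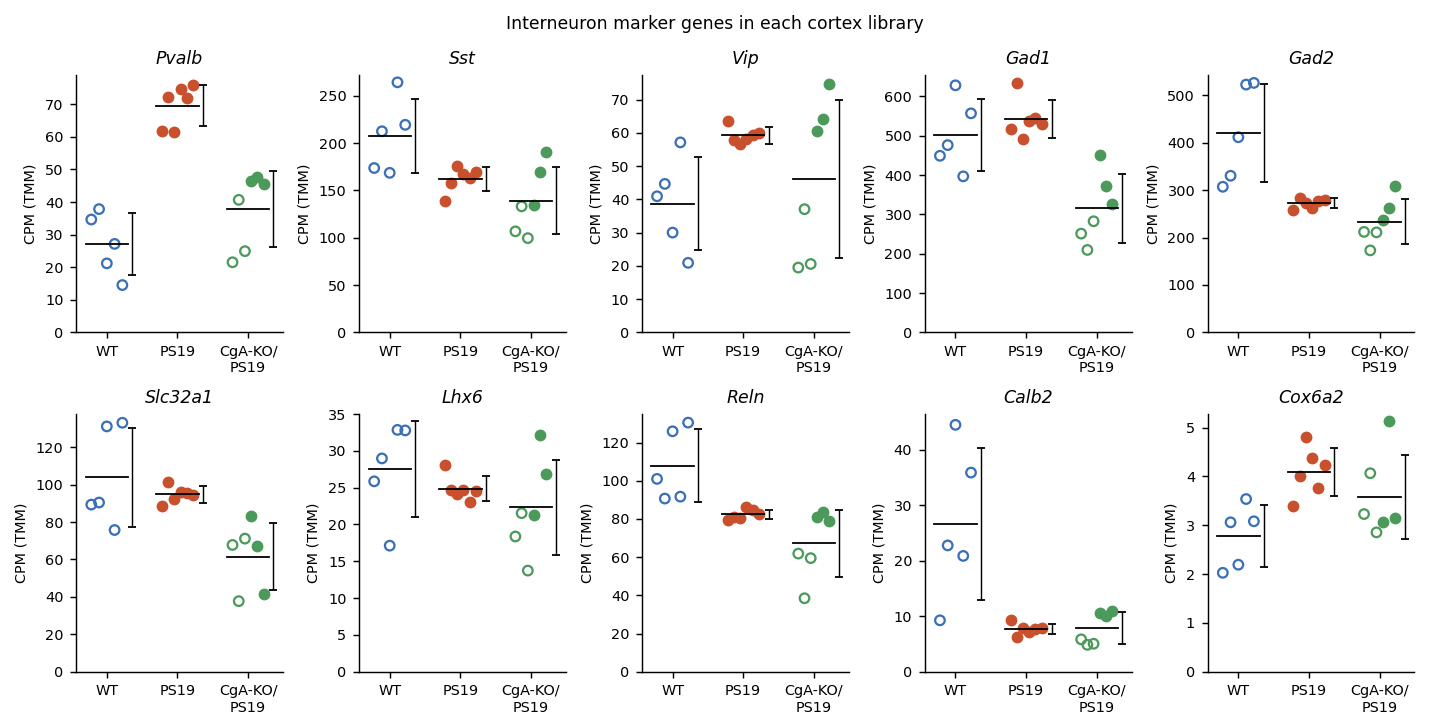
Level of each of the 10 interneuron marker genes (CPM with TMM library sizes, linear axes from 0) in each of the 17 libraries by genotype, with the mean (line) and SD (bar). Open circles are libraries whose summed striatal marker level was above that of every PS19 library, which are all 5 WT libraries and CgA-KO/PS19 replicates 1 to 3. Pvalb in PS19 (61.4 to 75.9 CPM) lies above every library of the other genotypes.

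PS19 was compared with WT to ask how the Tau transgene goes with interneuron genes. Pvalb was higher in PS19 by 2.58 times, and Gad2 and Calb2 were lower by 1.54 and 3.48 times. These were the 3 of 10 genes whose adjusted p was under 0.05 in the quasi-likelihood test of edgeR (an FDR over all genes tested), 1 higher and 2 lower, against 5.90% of all genes tested (1.95% higher and 3.95% lower). The libraries of PS19 and WT did not overlap for Pvalb, which was higher, and for Gad2, Reln and Calb2, which were lower, against 5.13% of all genes higher and 4.39% lower. The median log2 fold change of the 10 genes was -0.14, against 0.01 over all genes.

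CgA-KO/PS19 was compared with PS19 to ask how CgA loss goes with these genes in Tau transgenic cortex. Pvalb, Gad1 and Slc32a1 were lower in CgA-KO/PS19 by 1.84, 1.72 and 1.54 times and passed the same test, 3 of 10 genes against 9.72% of all genes (5.50% higher and 4.22% lower). These 3 genes were also the ones whose libraries did not overlap, against 3.79% of all genes lower. The median log2 fold change of the 10 genes was -0.26, against 0.03 over all genes. Without CgA-KO/PS19 replicates 1 to 3, the libraries with striatal RNA and high mitochondrial counts, 0 of the 10 genes passed in edgeR, with 3 at an unadjusted p under 0.05, and only 1.46% of all genes did. With all libraries, DESeq2 called 3 and limma voom 5 of them, against 15.2% and 22.7% of all genes. With the level of Ddx3y as a covariate 3, 3 and 6 of the 10 genes passed in the 3 comparisons, as without it. Of all genes 6.55%, 9.54% and 7.66% passed in these fits.

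CgA-KO/PS19 was also compared with WT. Sst, Gad1, Gad2, Slc32a1, Reln and Calb2 were lower in CgA-KO/PS19, 6 of 10 genes against 6.46% of all genes (3.56% higher and 2.89% lower). Only Reln had genotypes whose libraries did not overlap, against 1.54% of all genes lower. The median log2 fold change of the 10 genes was -0.62, against 0.01 over all genes. Only Gad2 and Calb2 passed without CgA-KO/PS19 replicates 1 to 3, against 4.16% of all genes. Without WT replicates 3 and 5, the WT libraries with the most striatal RNA, 0 passed in edgeR, with 6 at an unadjusted p under 0.05, against 1.20% of all genes. The 3 comparisons share libraries, so their counts are not independent of each other.

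**Figure D2:**
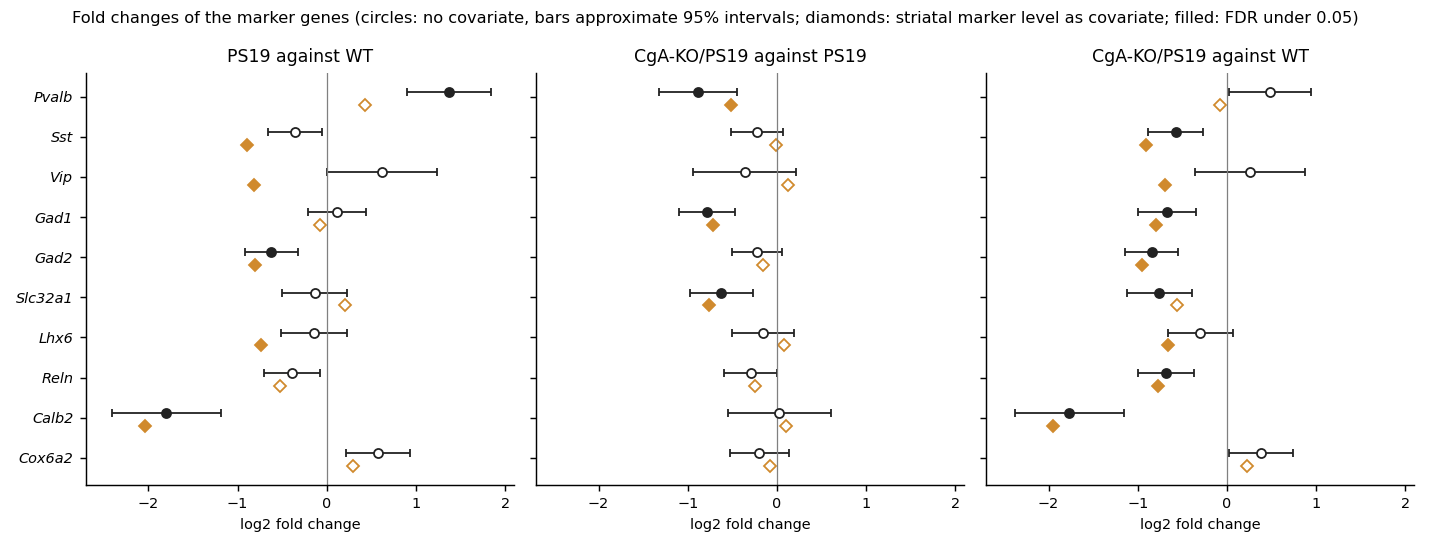
Log2 fold change of each interneuron gene in the 3 comparisons, in all 17 libraries without a covariate (circles, bars are approximate 95% intervals) and with the striatal marker level as a covariate (diamonds), filled where the FDR was under 0.05. Pvalb in PS19 against WT moves from 1.37 to 0.43 with the covariate, and Vip from 0.62 to -0.81.

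Pvalb encodes parvalbumin, the calcium-binding protein of fast-spiking interneurons (minus strand, chromosome 15 from 78191114 to 78206400 of GRCm38). Its level was 34.6, 37.8, 21.2, 27.1 and 14.5 CPM in WT replicates 1 to 5. It was 61.4 to 75.9 CPM in PS19 (median 72.0) and 21.5 to 47.6 CPM in CgA-KO/PS19 (median 43.1). No PS19 library came near the highest library of the other genotypes, and WT and CgA-KO/PS19 overlapped. Between PS19 and WT the log2 fold change was 1.37 (standard error 0.24, edgeR adjusted p = 0.00244), from means of 69.6 ± 6.43 CPM (SD, n = 6) and 27.1 ± 9.56 CPM (SD, n = 5). Between CgA-KO/PS19, at 37.8 ± 11.6 CPM (SD, n = 6), and PS19 it was -0.88 (standard error 0.22, edgeR adjusted p = 0.0219). Between CgA-KO/PS19 and WT it was 0.48, with an approximate 95% interval of 0.02 to 0.94 and an edgeR adjusted p of 0.242.

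Within WT and within CgA-KO/PS19, Pvalb was lowest in the libraries with the most striatal RNA. The WT libraries with the most striatal RNA, replicates 3 and 5, were at 21.2 and 14.5 CPM, and the others at 27.1 to 37.8 CPM, so that every WT library stayed below the PS19 libraries. With the striatal level as a covariate the difference between PS19 and WT was 0.43 on the log2 scale and no longer passed (edgeR adjusted p = 0.162), and without WT replicates 3 and 5 it was 1.06 and passed (edgeR adjusted p = 0.0239). CgA-KO/PS19 replicates 4 to 6, whose striatal level was at most that of PS19, were at 45.5 to 47.6 CPM, which is below each PS19 library and above replicates 1 to 3. Without replicates 1 to 3 the log2 fold change from PS19 was -0.59 and did not pass (edgeR adjusted p = 0.190). With all libraries and the covariate it was -0.51 (edgeR adjusted p = 0.0480). Among the libraries without Ddx3y, Pvalb was at 14.5 and 27.1 CPM in WT, 71.9 to 75.9 CPM in PS19 and 45.5 to 47.6 CPM in CgA-KO/PS19. Among those with it, Pvalb was at 21.2 to 37.8, 61.4 to 72.2 and 21.5 to 40.7 CPM, so PS19 was apart from both other genotypes in either set, which was not tested within the sets.

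Sst encodes somatostatin, the peptide of the dendrite-inhibiting class (minus strand, chromosome 16 from 23889573 to 23890958). It was at 174, 212, 169, 264 and 219 CPM in WT replicates 1 to 5. It was 139 to 176 CPM in PS19 (median 165) and 99.6 to 191 CPM in CgA-KO/PS19 (median 134). The genotypes overlapped in each comparison, and PS19 had the narrowest range. Between PS19 and WT the log2 fold change was -0.36 (standard error 0.16, edgeR adjusted p = 0.197), and between CgA-KO/PS19 and PS19 it was -0.22 (standard error 0.15, edgeR adjusted p = 0.347). Only the difference between CgA-KO/PS19 (139 ± 35.4 CPM; SD, n = 6) and WT (208 ± 38.9 CPM; SD, n = 5) passed, at -0.58 (standard error 0.16, edgeR adjusted p = 0.0341). It passed in 11 of the 17 fits that each left out 1 library, those without WT replicate 2, 4 or 5 or CgA-KO/PS19 replicate 1, 2 or 3 being the exceptions, with adjusted p-values up to 0.0890. When CgA-KO/PS19 replicates 1 to 3 were left out together it was -0.33 (edgeR adjusted p = 0.252). With the striatal level as a covariate Sst was lower than in WT in PS19 (-0.90, edgeR adjusted p = 0.00423) and in CgA-KO/PS19 (-0.91, edgeR adjusted p = 0.000372). CgA-KO/PS19 replicates 4 to 6 were at 135 to 191 CPM and differed from PS19 by 0.01 on the log2 scale.

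Vip encodes vasoactive intestinal peptide, which marks interneurons that inhibit other interneurons (plus strand, chromosome 10 from 5639218 to 5647617). It was at 40.9, 44.7, 30.0, 57.1 and 20.9 CPM in WT replicates 1 to 5 and 56.6 to 63.7 CPM in PS19 (median 58.7). In CgA-KO/PS19 it was 19.5, 37.1 and 20.6 CPM in replicates 1 to 3 and 60.5, 64.1 and 74.8 CPM in replicates 4 to 6. The CgA-KO/PS19 libraries thus fell into separate ranges, one below every PS19 library and the other reaching above them. None of the 3 comparisons passed: PS19 against WT was 0.62 on the log2 scale with an approximate 95% interval of 0.00 to 1.24 (edgeR adjusted p = 0.272). CgA-KO/PS19 against PS19 was -0.36 with an interval of -0.94 to 0.22 (edgeR adjusted p = 0.448), and CgA-KO/PS19 against WT was 0.26 with an interval of -0.36 to 0.87 (edgeR adjusted p = 0.694). The interval against PS19 holds the change that Pvalb showed in that comparison (-0.88).

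The sign of the Vip differences changed with the fit, and in PS19 against WT the covariate cannot separate the striatal level from the genotype. With that level as a covariate Vip was lower in PS19 than in WT by 0.81 on the log2 scale (value -0.81, edgeR adjusted p = 0.00443) and lower in CgA-KO/PS19 than in WT (value -0.69, edgeR adjusted p = 0.00126). Without CgA-KO/PS19 replicates 1 to 3 it was higher in PS19 than in WT (value 0.64, edgeR adjusted p = 0.0440), and the difference of CgA-KO/PS19 from PS19 was 0.16.

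**Figure D3:**
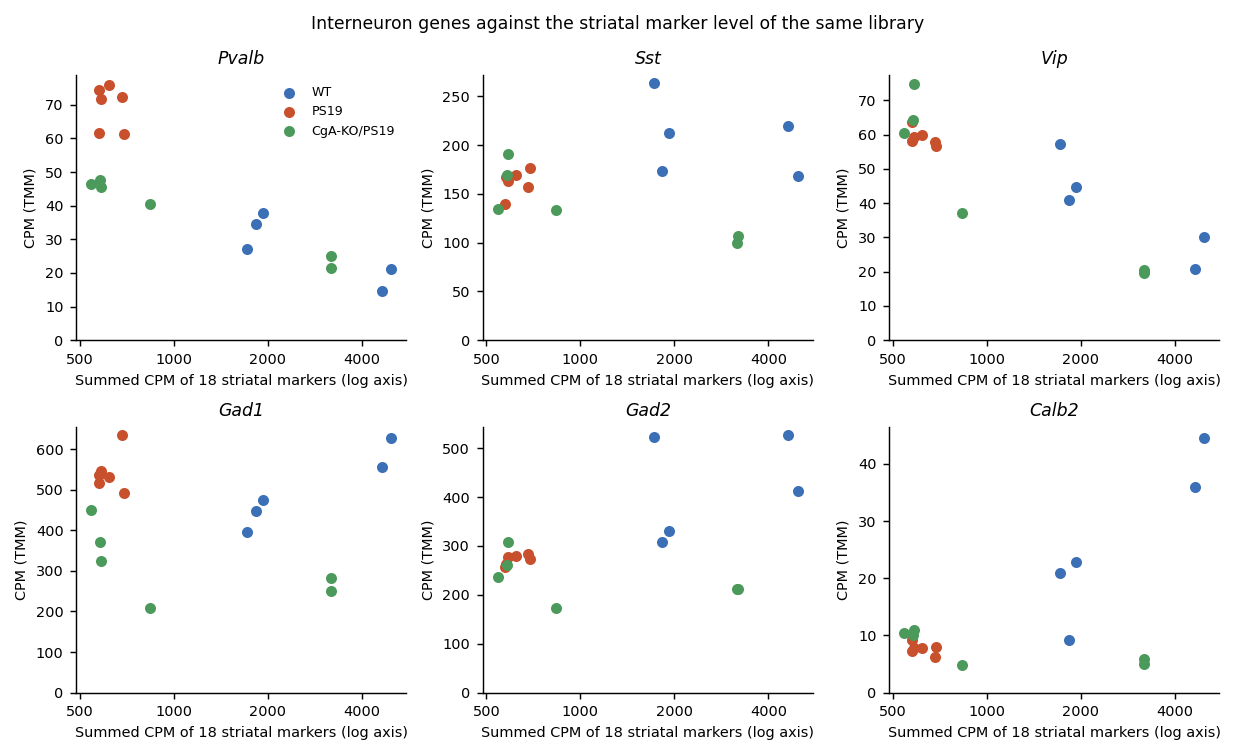
Level of 6 interneuron genes (CPM, linear axes from 0) against the summed CPM of 18 striatal medium spiny neuron markers in the same library (log axis), with a point for each of the 17 libraries coloured by genotype. PS19 and CgA-KO/PS19 replicates 4 to 6 share the low end (544 to 690 CPM), where Pvalb and Gad1 of CgA-KO/PS19 lie below PS19 and Vip does not.

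Gad1 and Gad2 encode the larger and the smaller form of glutamate decarboxylase, which makes GABA, and Slc32a1 encodes the transporter that loads GABA into synaptic vesicles. Gad1 (plus strand, chromosome 2 from 70553072 to 70602014) was at 449, 476, 628, 397 and 557 CPM in WT replicates 1 to 5, 493 to 634 CPM in PS19 (median 533) and 209.6 to 451 CPM in CgA-KO/PS19 (median 304). All CgA-KO/PS19 libraries were below all PS19 libraries. The log2 fold change between them was -0.78 (standard error 0.16, edgeR adjusted p = 0.00761), and that between CgA-KO/PS19 and WT was -0.67 (standard error 0.16, edgeR adjusted p = 0.0220). PS19 (543 ± 48.5 CPM; SD, n = 6) and WT (501 ± 91.5 CPM; SD, n = 5) differed by 0.11, with an approximate 95% interval of -0.21 to 0.44. CgA-KO/PS19 replicates 4 to 6, at 325 to 451 CPM, were also below every PS19 library, and without replicates 1 to 3 the log2 fold change from PS19 was -0.51 and did not pass (edgeR adjusted p = 0.0962). With the striatal level as a covariate it was -0.71 and passed (edgeR adjusted p = 0.0260).

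Gad2 (plus strand, chromosome 2 from 22622205 to 22693874) was at 307, 330.3, 412, 523 and 526 CPM in WT replicates 1 to 5, above all PS19 libraries at 257 to 283 CPM (median 276). It was 173 to 309 CPM in CgA-KO/PS19 (median 224). Gad2 thus separated PS19 from WT, where Gad1 did not, and Gad1 separated CgA-KO/PS19 from PS19, where Gad2 did not. The difference between these differences was not tested. The log2 fold change of Gad2 was -0.62 between PS19 and WT (standard error 0.15, edgeR adjusted p = 0.0202), -0.22 between CgA-KO/PS19 and PS19 (standard error 0.14, edgeR adjusted p = 0.331) and -0.84 between CgA-KO/PS19 and WT (standard error 0.15, edgeR adjusted p = 0.00443). The first did not pass without WT replicate 4 (edgeR adjusted p = 0.0541), the shallowest library, without WT replicate 5 (edgeR adjusted p = 0.0779) or without WT replicates 3 and 5 (edgeR adjusted p = 0.138). The last was -0.64 without CgA-KO/PS19 replicates 1 to 3 and still passed (edgeR adjusted p = 0.0402).

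Slc32a1 (plus strand, chromosome 2 from 158610767 to 158615748) was at 89.3, 90.4, 131, 75.7 and 133 CPM in WT replicates 1 to 5. It was 88.5 to 102 CPM in PS19 (median 95.2) and 37.7 to 83.4 CPM in CgA-KO/PS19 (median 67.5). Every CgA-KO/PS19 library was below every PS19 library, and the WT values lay around those of PS19, highest in the libraries with the most striatal RNA. The log2 fold change was -0.62 between CgA-KO/PS19 and PS19 (standard error 0.18, edgeR adjusted p = 0.0367) and -0.76 between CgA-KO/PS19 and WT (standard error 0.19, edgeR adjusted p = 0.0222). The former passed in 8 of the 17 fits that each left out 1 library, with adjusted p-values up to 0.0801, and not in any that left out a PS19 library or CgA-KO/PS19 replicate 1, 2 or 6. This difference was -0.57 without CgA-KO/PS19 replicates 1 to 3 (edgeR adjusted p = 0.174). The difference from WT was lost without WT replicate 3 (edgeR adjusted p = 0.0591) or 5 (edgeR adjusted p = 0.0772), as was that of Gad1 (edgeR adjusted p = 0.0600 and 0.0659). PS19 and WT differed by -0.14, with an approximate 95% interval of -0.50 to 0.23.

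Lhx6 is a transcription factor of interneurons from the medial ganglionic eminence, the origin of the parvalbumin and somatostatin classes (minus strand, chromosome 2 from 36081953 to 36105408). It was at 25.9, 29.0, 17.1, 32.8 and 32.8 CPM in WT replicates 1 to 5, 23.0 to 28.1 CPM in PS19 (median 24.6) and 13.7 to 32.1 CPM in CgA-KO/PS19 (median 21.4). The 3 genotypes overlapped. The log2 fold changes were -0.14 for PS19 against WT (approximate 95% interval -0.51 to 0.22), -0.16 for CgA-KO/PS19 against PS19 (interval -0.50 to 0.19) and -0.30 for CgA-KO/PS19 against WT (interval -0.67 to 0.07). With the striatal level as a covariate Lhx6 was lower in PS19 (-0.74, edgeR adjusted p = 0.0306) and in CgA-KO/PS19 (-0.66, edgeR adjusted p = 0.0130) than in WT.

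Reln encodes reelin, an extracellular protein of layer 1 and neurogliaform interneurons (minus strand, chromosome 5 from 21884454 to 22344702). It was at 101, 90.7, 126, 91.7 and 130.5 CPM in WT replicates 1 to 5, above all PS19 libraries at 79.4 to 86.2 CPM (median 81.7). In CgA-KO/PS19 it was 38.5 to 61.9 CPM in replicates 1 to 3 and 78.9 to 83.7 CPM in replicates 4 to 6. All CgA-KO/PS19 libraries were below all WT libraries. Replicates 4 to 6 overlapped the PS19 range, with replicate 6 just below it at 78.9 CPM. The log2 fold change was -0.68 between CgA-KO/PS19 and WT (standard error 0.16, edgeR adjusted p = 0.0170) and -0.41 without replicates 1 to 3 (edgeR adjusted p = 0.0701), and it did not pass without WT replicate 5 either (edgeR adjusted p = 0.0584). PS19 against WT was -0.39 (standard error 0.16, edgeR adjusted p = 0.165) and CgA-KO/PS19 against PS19 was -0.29 (standard error 0.15, edgeR adjusted p = 0.220).

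Calb2 encodes calretinin, a calcium-binding protein that marks part of the VIP class and is also abundant in the olfactory bulb (minus strand, chromosome 8 from 110137502 to 110168210). Its level was 9.26, 22.8, 44.5, 20.9 and 35.9 CPM in WT replicates 1 to 5, 6.27 to 9.25 CPM in PS19 (median 7.78) and 4.84 to 10.9 CPM in CgA-KO/PS19 (median 7.93). The lowest WT library was level with the highest PS19 library, and the other WT libraries were well above. WT replicate 3, the highest, also had the highest summed level of 8 olfactory bulb markers, 120.0 CPM against 19.5 to 48.5 CPM in the other WT libraries and 4.69 to 6.92 CPM in PS19. Without it the log2 fold change was -1.53 between PS19 and WT and -1.50 between CgA-KO/PS19 and WT, and both passed. Calb2 had the largest fold change of the 10 genes, -1.80 on the log2 scale between PS19 and WT (standard error 0.31, edgeR adjusted p = 0.00226) and -1.77 between CgA-KO/PS19 and WT (standard error 0.31, edgeR adjusted p = 0.00398). Without WT replicates 3 and 5 these values were -1.20 (edgeR adjusted p = 0.0443) and -1.17 (edgeR adjusted p = 0.0600). CgA-KO/PS19 and PS19 differed by 0.03, with an approximate 95% interval of -0.55 to 0.60.

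Cox6a2 encodes a subunit of cytochrome c oxidase that in the brain is found mainly in parvalbumin interneurons (minus strand, chromosome 7 from 128205435 to 128206387). It had the lowest CPM of the 10 genes, 2.02, 3.06, 2.19, 3.54 and 3.08 CPM in WT replicates 1 to 5, 3.39 to 4.81 CPM in PS19 (median 4.11) and 2.85 to 5.13 CPM in CgA-KO/PS19 (median 3.19). Only the highest WT library reached into the PS19 range. The log2 fold change of PS19 against WT was 0.58 (standard error 0.18, edgeR adjusted p = 0.0720), and it passed without WT replicate 4 (edgeR adjusted p = 0.0462), the highest WT library, and without CgA-KO/PS19 replicate 5 (edgeR adjusted p = 0.0472), which shares in the estimate of the spread. CgA-KO/PS19 against PS19 was -0.20, with an approximate 95% interval of -0.53 to 0.14.

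The 3 classes were compared directly by the ratio of their defining genes within each library, which does not depend on library size. Such a ratio can still depend on the mix of tissue in the library. Between PS19 and WT, the genotype and the striatal level cannot be told apart in these ratios either. Pvalb relative to Sst was highest in PS19 and lowest in WT. The ratio of Pvalb to Sst counts was 0.199, 0.178, 0.126, 0.103 and 0.0662 in WT replicates 1 to 5, 0.348 to 0.459 in PS19 (median 0.445) and 0.201 to 0.345 in CgA-KO/PS19 (median 0.266). The 3 ranges did not overlap, although CgA-KO/PS19 came close to WT at its lower end and to PS19 at its upper end. The log2 ratio differed by 1.78 between PS19 and WT (standard error 0.29), by -0.69 between CgA-KO/PS19 and PS19 (standard error 0.13) and by 1.09 between CgA-KO/PS19 and WT (standard error 0.31). Each had a two-sided exact permutation p of 0.00216, which is the smallest these group sizes with 5 or 6 libraries gave, and an adjusted p of 0.00390 over the 9 ratio tests. Without CgA-KO/PS19 replicates 1 to 3 the difference from PS19 was -0.59 (exact permutation test, adjusted p = 0.0214), and without WT replicates 3 and 5 the difference between PS19 and WT was 1.48 (exact permutation test, adjusted p = 0.0214).

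The ratio of Pvalb to Vip counts was 0.846, 0.847, 0.705, 0.475 and 0.694 in WT replicates 1 to 5 and 0.968 to 1.28 in PS19 (median 1.23). In CgA-KO/PS19 it was 1.10, 1.10 and 1.21 in replicates 1 to 3 and 0.770, 0.742 and 0.608 in replicates 4 to 6. PS19 was above WT in every library, by 0.75 on the log2 scale (standard error 0.17, exact permutation test, adjusted p = 0.00390). CgA-KO/PS19 replicates 1 to 3, which had striatal RNA and Ddx3y, stood among PS19. Replicates 4 to 6, low in both, stood among WT, although every WT library held striatal RNA. Over all 6 CgA-KO/PS19 libraries the difference from PS19 was -0.39 (standard error 0.18, exact permutation test, adjusted p = 0.0779). Over replicates 4 to 6 alone it was -0.74 (exact permutation test, adjusted p = 0.0214). CgA-KO/PS19 against WT was 0.36 (standard error 0.22, exact permutation test, adjusted p = 0.166).

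The ratio of Sst to Vip counts was 4.24, 4.76, 5.61, 4.62 and 10.5 in WT replicates 1 to 5, 2.19 to 3.11 in PS19 (median 2.79) and 2.23 to 5.48 in CgA-KO/PS19 (median 3.11). PS19 was below WT in every library, with a log2 difference of -1.04 (standard error 0.25, exact permutation test, adjusted p = 0.00390). CgA-KO/PS19 replicates 1 to 3 were at 3.59 to 5.48, above every PS19 library, and replicates 4 to 6 were at 2.23 to 2.64, within the PS19 range. The difference of CgA-KO/PS19 from PS19 was 0.30 over all libraries (standard error 0.23, exact permutation test, adjusted p = 0.242) and -0.15 over replicates 4 to 6. That from WT was -0.74 (standard error 0.32, exact permutation test, adjusted p = 0.0779) over all and -1.18 over replicates 4 to 6 (exact permutation test, adjusted p = 0.0268).

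**Figure D4:**
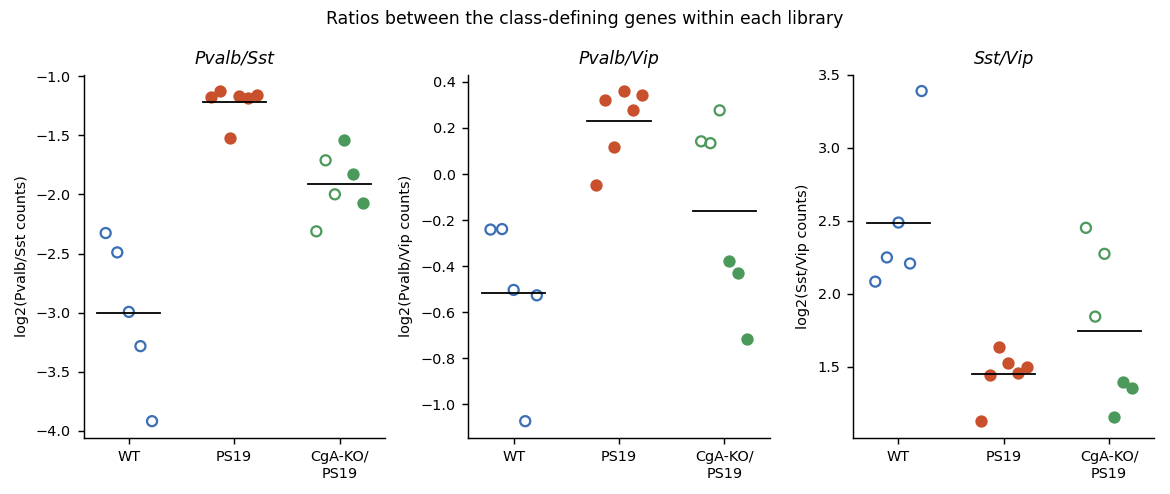
Log2 ratio of the counts of Pvalb to Sst, Pvalb to Vip and Sst to Vip within each library, by genotype, with the mean of each genotype as a line. Open circles are libraries whose striatal marker level was above that of every PS19 library, all WT libraries among them. PS19 lies apart from WT in all 3 ratios.

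Further genes of each class were taken from fixed lists that include the genes above, and their counts stand against 5.90%, 9.72% and 6.46% of all genes that passed in PS19 against WT, CgA-KO/PS19 against PS19 and CgA-KO/PS19 against WT. Of 14 genes of the parvalbumin list, 6 rose and 1 fell in PS19 against WT, with a median log2 fold change of 0.52, and 1 rose and 7 fell in CgA-KO/PS19 against PS19, with a median of -0.62. The medians over all genes were 0.01 and 0.03. Vamp1, a vesicle fusion protein gene, went from 113 CPM in WT to 242 CPM in PS19 and 135 CPM in CgA-KO/PS19 (means). Its log2 fold change was 1.09 against WT (standard error 0.18, edgeR adjusted p = 0.0019) and -0.85 for CgA-KO/PS19 against PS19 (standard error 0.17, edgeR adjusted p = 0.0077). Stac2 (1.27 and -0.75), Btbd11 (1.14 and -1.23) and the potassium channel subunit gene Kcns3 (1.03 and -0.81) passed in both comparisons in these directions, as did the synaptic vesicle calcium sensor gene Syt2 (1.02 and -0.89). Kcnc1, a potassium channel gene that allows fast firing, passed in CgA-KO/PS19 against PS19 at -0.61. Gpr149, a receptor gene, went the other way, at -2.93 and 1.78, with a mean of 0.451 CPM in PS19 and 3.45 CPM in WT.

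Within WT and within CgA-KO/PS19, the parvalbumin list was lowest in the libraries with the most striatal RNA. Its summed level was 715 to 1049 CPM in WT and 1205 to 1522 CPM in PS19. It was 633 to 838 CPM in CgA-KO/PS19 replicates 1 to 3 and 1039 to 1085 CPM in replicates 4 to 6. The latter were as low in striatal markers as PS19 and still below every PS19 library on this list. Without replicates 1 to 3, 0 of the 14 genes passed in CgA-KO/PS19 against PS19 in edgeR, against 1.46% of all genes. In that fit 5 had an unadjusted p under 0.05, and the median was -0.32. With all libraries and the striatal level as a covariate, 1 of the 14 was higher and 1 lower in PS19 against WT. That was near the 16.2% of all genes that passed in the same fit. In CgA-KO/PS19 against PS19 the covariate gave 3 lower, against 6.73% of all genes. Between CgA-KO/PS19 and WT, 0 of the 14 passed in edgeR, with 3 at an unadjusted p under 0.05. DESeq2 and limma voom each called 1, against 11.5% and 10.7% of all genes. With the striatal covariate 6 of the 14 were lower in CgA-KO/PS19 than in WT (median -0.44), against 20.9% of all genes. This median was -0.12 without the covariate and 0.25 without CgA-KO/PS19 replicates 1 to 3.

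Of 13 genes of the somatostatin list, 3 fell in PS19 against WT (median -0.38), 1 rose and 1 fell in CgA-KO/PS19 against PS19 (median -0.22) and 5 fell in CgA-KO/PS19 against WT (median -0.68). The genes that fell in PS19 were Tacr1, the substance P receptor gene (-3.51, edgeR adjusted p = 0.0006), the NMDA receptor subunit gene Grin3a (-0.59, edgeR adjusted p = 0.0075) and Nos1, the neuronal nitric oxide synthase gene (-1.54, edgeR adjusted p = 0.0093). Tacr1 was at a mean of 15.4 CPM in WT, 1.35 CPM in PS19 and 4.61 CPM in CgA-KO/PS19, and it is also made by striatal interneurons. Crhbp, which encodes the binding protein of corticotropin-releasing hormone, fell in CgA-KO/PS19 from a mean of 33.9 to 17.3 CPM (-0.97, standard error 0.14, edgeR adjusted p = 0.0007). The share of the list that passed against PS19, 2 of 13, was near that of all genes. Against WT Crhbp was at -0.78, and Grin3a (-0.68), Pdyn (-0.90), Tacr1 (-1.74) and Sst were the others that fell. Every WT library held striatal RNA. For no gene of these class lists was it tested whether a difference from WT arose in cortex or in striatum.

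Of 12 genes of the VIP list, 1 rose and 3 fell in PS19 against WT, with a median of 0.20, so that the median and the balance of calls had opposite signs. Mybpc1 rose (1.40, edgeR adjusted p = 0.0379). The neuropeptide Y receptor gene Npy2r (-2.13), Calb2 and the acetylcholine synthesis gene Chat (-3.87) fell, and Chat is known from striatal cholinergic neurons too. In CgA-KO/PS19 against PS19 the serotonin receptor gene Htr3a (-0.95, edgeR adjusted p = 0.0325) and the cholecystokinin gene Cck (-0.65, edgeR adjusted p = 0.0371) were lower. The median over the list was -0.15 in that comparison. Relative to WT, Calb2, Npy2r (-1.69) and the cannabinoid receptor gene Cnr1 (-0.73) fell, with a median of -0.12. Without CgA-KO/PS19 replicates 1 to 3, 1 of the 12 was higher and none lower against PS19 in edgeR, against 1.46% of all genes. In that fit 2 had an unadjusted p under 0.05.

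Of 9 genes of the reelin and neurogliaform list, the transcription factor gene Id2 (0.52) and the chemokine gene Cxcl14 (0.58) rose and the synaptic vesicle gene Sv2c (-1.14) fell in PS19 against WT. Ndnf (-0.66) and Lamp5 (-0.92), both markers of neurogliaform cells, fell in CgA-KO/PS19 against PS19, and Lamp5 went from a mean of 342 to 181 CPM. Without CgA-KO/PS19 replicates 1 to 3, 0 of the 9 passed in edgeR (median -0.03, 2 at an unadjusted p under 0.05), against 1.46% of all genes. With near-identical libraries summed 0 passed (3 at an unadjusted p under 0.05), against 0.710% of all genes. DESeq2 and limma voom with all libraries called 2 and 4, against 15.2% and 22.7% of all genes. Against WT, Sv2c (-1.45), Ndnf (-1.14) and Reln fell and Cxcl14 (0.49) and Id2 (0.39) rose. The medians in these comparisons were 0.00, -0.29 and -0.27. Of 8 genes for GABA synthesis, packaging, uptake and breakdown, the ones that passed were Gad2 in PS19 against WT, Gad1 and Slc32a1 in CgA-KO/PS19 against PS19 and these 3 in CgA-KO/PS19 against WT, with medians of 0.00, -0.15 and -0.38.

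Of 19 interneuron transcription factor genes, 1 rose and 5 fell in PS19 against WT, with a median of -0.03. The ones with the smallest p-values were Sp9 (-1.67), Nr2f2, Dlx6 (-1.52) and Nkx2-1 (-4.23), which fell, and Nr2f2 went from a mean of 62.1 CPM in WT to 15.5 CPM in PS19. Sp9 and Dlx6 are also known from the development of striatal neurons, and Nkx2-1 is made in the basal forebrain. Only Npas1 passed in CgA-KO/PS19 against PS19, at -1.09 (standard error 0.26, edgeR adjusted p = 0.0156), from a mean of 9.64 to 4.50 CPM. It was lost without CgA-KO/PS19 replicates 1 to 3 and with near-identical libraries summed. In these fits 0 of the 19 passed in edgeR (2 and 1 at an unadjusted p under 0.05), against 1.46% and 0.710% of all genes. DESeq2 and limma voom with all libraries called 3 and 4 of the 19, against 15.2% and 22.7% of all genes. Relative to WT, 5 fell in CgA-KO/PS19, led by Sp9 (-1.11), Dlx6 (-1.02), Nr2f2 (-1.24) and Dlx5 (-0.83), with a median of -0.21.

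**Figure D5:**
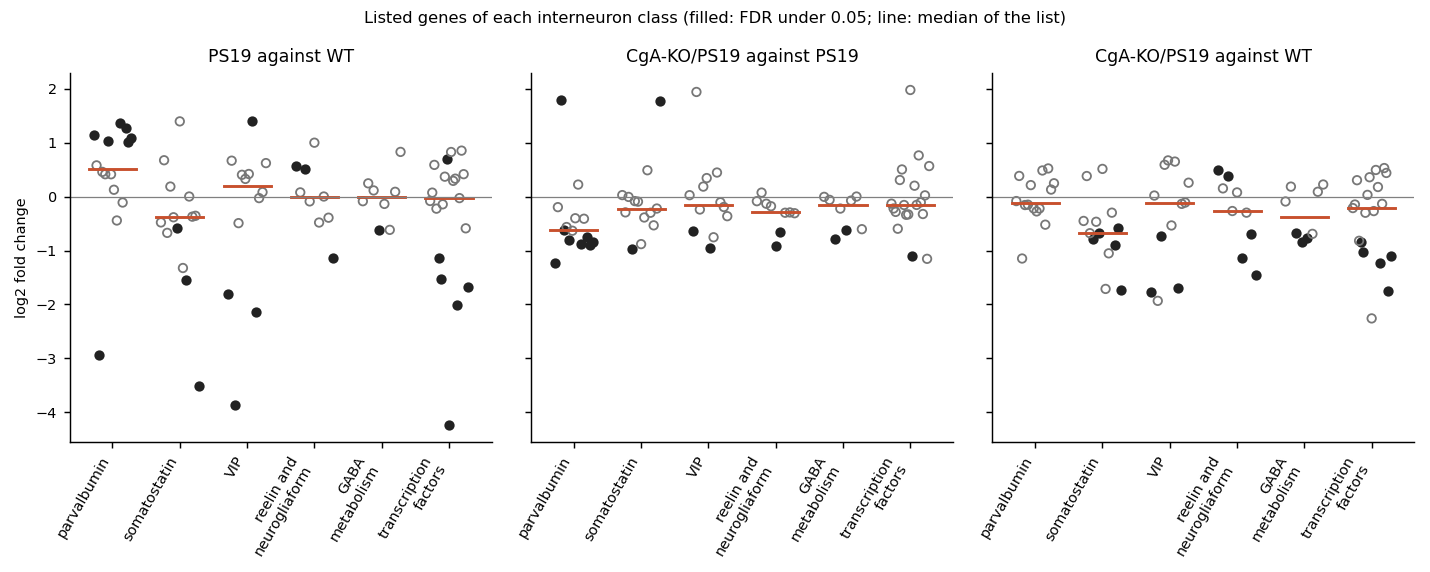
Log2 fold change of each listed gene by interneuron class in the 3 comparisons, filled where the FDR was under 0.05, with the median of the list as a line. The parvalbumin list has the highest median in PS19 against WT (0.52) and the lowest in CgA-KO/PS19 against PS19 (-0.62).

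The genes whose level ran most like that of Pvalb over the 17 libraries were Vamp1, Kcns1 and Kcns3. The root mean square difference of log2(CPM + 1), centred for each gene, was 0.225, 0.233 and 0.243, against a spread of 0.691 for Pvalb itself, among 11804 genes with a mean of at least 5 CPM. Vamp1 and Kcns3 are on the parvalbumin list, and Kcns1, a potassium channel subunit gene, is not. Kcns1 went from a mean of 15.7 CPM in WT to 31.1 CPM in PS19 and 19.9 CPM in CgA-KO/PS19, with SDs of 6.23, 2.05 and 7.32 CPM. For Sst the nearest were Fam122a (0.104), Tnr (0.109) and Gigyf2 (0.121), against a spread of 0.340, and for Vip they were Olfm2 (0.165), Glt8d2 (0.176) and Efna5 (0.188), against a spread of 0.599. None of these 6 is on an interneuron list.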

How the data were processed

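Polyadenylated RNA of prefrontal cortex was sequenced as paired-end reads from 17 libraries. According to the submitters' processing notes and the methods of the study, the authors trimmed reads with Trimmomatic 0.39, aligned them to mm10 with STAR 2.7.10b and quantified transcripts with StringTie 1.3.6. The deposited table holds raw integer counts, which prepDE made for each gene and which were not normalized. prepDE turns coverage into counts with an assumed read length, so the counts overstate the fragments. Annotation release and strand setting are not given in the sources used here, so overlapping and antisense genes are uncertain.

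The deposited counts were tested with edgeR 4.0.16 in R 4.3.3 (TMM, filterByExpr by genotype, quasi-likelihood F test, 1 mean per genotype over all 17 libraries, no covariate), with Benjamini-Hochberg adjustment over 23062 genes and an FDR under 0.05. The common biological coefficient of variation was 0.316. Standard errors are the log2 fold change divided by the square root of F. The edgeR step was tested on simulated data. Ratios of counts were compared by two-sided exact permutation tests, adjusted over 9 tests. DESeq2 1.42.0, limma 3.58.1 voom, other normalization and filters, covariates, a replicate block, near-identical libraries merged and each library left out were alternatives. Leaving out the 3 CgA-KO/PS19 or the 2 WT libraries with the most striatal RNA was chosen after seeing the data. So was the description of values within the libraries with and without Ddx3y, a planned covariate. Same-numbered libraries were not paired by the labels. Whether replicates are separate mice is not stated in the labels, while the paper gives its n as biological replicates. The p-values measure the spread between libraries.

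The members, the gene lists and the tests were chosen with earlier results of these data known. From each class list, up to 4 further genes per comparison with the smallest p among those past the FDR were named. Syt2, Btbd11 and Kcns3 beyond that number, and Gpr149 in CgA-KO/PS19, were named after their values were seen. Gene positions are from GENCODE M21 and promoter windows from RefSeq. Ratios, lists and plots were computed in Python 3.11.15 (scipy 1.17.1, pandas 2.3.3, numpy 2.4.6, matplotlib 3.10.9).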

Additional observations from a re-analysis of the deposited data

Results flagged for a closer look

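In 39 groups of libraries (10 genes and 3 ratios in 3 genotypes), the highest or lowest library was checked against the rest with Dixon's test, and chance flags about 1 group in 20. Lhx6 in PS19 had a highest library of 28.1 CPM, in replicate 1, against 23.0 to 24.7 CPM in the other 5. The ratio of Pvalb to Sst counts in PS19 had a lowest library of 0.348, in replicate 3, against 0.440 to 0.459 in the other 5. The ratio of Sst to Vip counts in WT had a highest library of 10.5, in replicate 5, against 4.24 to 5.61 in the other 4. With the near-identical libraries, PS19 replicates 4 to 6 among them, averaged into 1, the log2 ratio of Pvalb to Sst differed by 1.75 between PS19 and WT (exact permutation test, adjusted p = 0.0179) and by -0.61 between CgA-KO/PS19 and PS19 (exact permutation test, adjusted p = 0.0286).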

How the results depend on the processing

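The number of the 10 genes that passed is given with the percentage of all genes that passed in the same fit. In PS19 against WT it was 3 (5.90%). It was 5 with only these genotypes in the fit (10.5%) and 6 with limma voom (17.2%). With the striatal level as a covariate it was 5 (all lower, 16.2%), and without CgA-KO/PS19 replicates 1 to 3 it was 5 (9.21%). It was 2 without WT replicates 3 and 5 (2.14%) or with near-identical libraries summed (1.92%). For CgA-KO/PS19 against PS19 it was 3 (9.72%), and it was 5 with limma voom (22.7%). It was 0 with the near-identical libraries summed (edgeR, 3 at an unadjusted p under 0.05, 0.710%) and 0 without CgA-KO/PS19 replicates 1 to 3 (1.46%). For CgA-KO/PS19 against WT it was 6 (6.46%), and also 6 with DESeq2 (11.5%) and with limma voom (10.7%). With the striatal level as a covariate it was 7 (all lower, 20.9%). It was 2 with only these genotypes in the fit, where 266 of 20459 genes passed. It was also 2 with the near-identical libraries summed (2.55%) and without CgA-KO/PS19 replicates 1 to 3 (4.16%). Without WT replicates 3 and 5 it was 0 (edgeR, 6 at an unadjusted p under 0.05, 1.20%). The share of all genes was thus also lower in the fits with 2 or 0. Leaving out 1 library gave 2 to 4, 2 to 3 and 2 to 6 genes in the 3 comparisons, where 632 to 1658, 1019 to 3822 and 627 to 2099 of all genes passed. The 2 of the last came without WT replicate 5 (2.76%). Over all genes, 1361, 2242 and 1489 passed in these comparisons, and the counts were 660, 654 and 614 with a replicate block, 430, 159 and 571 with near-identical libraries summed, 3967, 5229 and 2458 with limma voom, 2396, 3958 and 2623 with DESeq2, 3745, 1553 and 4811 with the striatal covariate, 2275, 2869 and 266 with only 2 genotypes in the fit and 1054, 1566 and 1017 with no filter.

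For the ratios, pairing by replicate number (a replicate block, sign-flip permutation) gave 1.77, -0.69 and 1.12 for Pvalb to Sst in the 3 comparisons, and 0.72 for Pvalb to Vip and -1.04 for Sst to Vip in PS19 against WT, all with an adjusted p of 0.0938. A p from 5 pairs cannot be under 0.0625, so this says nothing of stability. Correlations of the deviations of same-numbered libraries ranged from -0.0911 to 0.414, the highest for replicate 3 in CgA-KO/PS19 against WT. The labels give no pairing, and these values do not settle whether the numbers pair the libraries. Leaving out 1 library gave -0.48 to -0.28 for Pvalb to Vip in CgA-KO/PS19 against PS19, which passed without CgA-KO/PS19 replicate 3, and -0.88 to -0.51 for Sst to Vip in CgA-KO/PS19 against WT, which passed without CgA-KO/PS19 replicate 1. Without CgA-KO/PS19 replicates 1 to 3, Pvalb to Vip against PS19 was -0.74 and Sst to Vip was -0.15 against PS19 and -1.18 against WT. With near-identical libraries averaged, Sst to Vip against WT was -0.86 (exact permutation test, adjusted p = 0.0476).

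Signs turned as follows, and the cause was not tested. In PS19 against WT, the striatal covariate gave Vip -0.81, Gad1 -0.0800 and Slc32a1 0.20, and Slc32a1 was 0.15 without WT replicates 3 and 5. Against PS19, CgA-KO/PS19 with the covariate gave Vip 0.12 and Lhx6 0.0770, and leaving out CgA-KO/PS19 replicates 1 to 3 gave Sst 0.0142, Vip 0.16 and Lhx6 0.10. Against WT, CgA-KO/PS19 with the covariate gave Pvalb -0.0790 and Vip -0.69, and Vip was -0.0448 without WT replicates 3 and 5. Calb2 in CgA-KO/PS19 against PS19, which lay near 0, was -0.0201 with no filter, -0.19 with limma voom, -0.0383 with the replicate block, -0.0444 with the Ddx3y covariate and -0.0868 to 0.14 with 1 library left out.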

Other observations

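Other cell types were listed beside the interneuron genes. Their counts stand against 5.90%, 9.72% and 6.46% of all genes in PS19 against WT, CgA-KO/PS19 against PS19 and CgA-KO/PS19 against WT. Of 12 cortical excitatory neuron genes, 2 were higher in PS19 than in WT and 1 was lower in CgA-KO/PS19 than in PS19, and their summed level was 3848 to 6115 CPM in WT, 5804 to 7077 CPM in PS19 and 4969 to 6627 CPM in CgA-KO/PS19. Of the 18 striatal medium spiny neuron genes, 16 were lower in PS19 than in WT (median log2 fold change -3.19) and 10 rose in CgA-KO/PS19 against PS19 (median 2.13). Of 9 basal forebrain and pallidal genes tested, 7 were lower in PS19 than in WT and 4 rose in CgA-KO/PS19 against PS19. The 6 oligodendrocyte genes summed to 2513 to 2943 CPM in CgA-KO/PS19 replicates 1 to 3 and to 1507 to 1608 CPM in replicates 4 to 6, against 1223 to 1761 CPM in PS19. The 7 astrocyte genes summed to 1236 to 3762 CPM in WT, 1356 to 5297 CPM in PS19 and 4483 to 6866 and 1445 to 3585 CPM in CgA-KO/PS19 replicates 1 to 3 and 4 to 6. Of these 7, 1 was higher in PS19 than in WT, 2 rose in CgA-KO/PS19 against PS19 and 1 against WT, and of the oligodendrocyte genes 1 rose against PS19 and 2 against WT. Of 6 microglia and 5 endothelium genes, 0 passed in any comparison in edgeR, with 3 and 2 at an unadjusted p under 0.05 summed over the 3 comparisons. DESeq2 called 0 of them, against 9.81%, 15.2% and 11.5% of all genes in the 3 comparisons. Limma voom called 3 and 1 in the same sum, against 17.2%, 22.7% and 10.7% of all genes. The summed levels of these microglia and endothelium genes were 125 to 229 CPM and 118 to 192 CPM over the 17 libraries. Of 6 olfactory bulb genes tested, 2 were lower in PS19 than in WT, and of 7 thalamus and hypothalamus genes, 1 was higher and 1 lower.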
